A study of Rattus norvegicus with 8 samples.

Results

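Oxidative phosphorylation subunits are the proteins that build the respiratory chain (complexes I to IV) and the ATP synthase (complex V) of mitochondria. Their genes were taken by symbol (Nduf, Sdh, Uqcr, Cox4 to Cox8, Atp5 and the mitochondrial Mt-nd, Mt-co, Mt-atp and Mt-cyb genes) and kept with a normalized read count of at least 10 in at least 2 libraries. This left 96 of 16478 genes with such counts, and 101 of the 32545 genes in the table carried a matching symbol. The 5 others (Ndufs6, Ndufa1, Cox8c, Cox6c-ps1 and Cox7b2) had no read in any library. The members with the lowest counts, Atp5pb and a second identifier of Ndufv3, reached 11.3 and 19.6 in their second-highest library. Whether these counts reflect low expression or reads not assigned to the gene was not tested. Of the members, 83 are nuclear, on 80 symbols, and 13 are mitochondrially encoded.

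Sciatic nerve tissue was sequenced from 3 PEG-fused peripheral nerve allografts (PEG), from 3 negative control allografts that had no PEG treatment (NC) and from 2 unoperated nerves (Unop). All came from female outbred Sprague Dawley rats aged 3 to 6 months, and both kinds of allograft were excised at 14 days PO. Donor and host were not tissue matched and hosts were not immunosuppressed. Both kinds of allograft were sutured and also received the methylene blue of the fusion protocol, so they differ in the PEG step, and each library is a different nerve.

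Complex I (NADH dehydrogenase) and complex II (succinate dehydrogenase) pass electrons to ubiquinone. Complex III passes them to cytochrome c and complex IV (cytochrome c oxidase) to oxygen, and the ATP synthase uses the proton gradient that complexes I, III and IV build. Mitochondrial DNA encodes subunits of complexes I, III, IV and V, which must assemble with subunits imported from the cytosol, while complex II is wholly nuclear. In nerve, axons and Schwann cells both hold mitochondria, but the axon's nuclear messages lie mostly in cell bodies outside the nerve. Libraries were made from poly-A RNA of whole tissue, in which fewer cells of a type and less RNA per cell cannot be told apart.

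Promoters of many nuclear subunit genes are known to hold sites for NRF1, the ETS-type factor GABPA and YY1. RefSeq promoters of the GRCr8 build, 250 bases before to 50 after the start, were found for 69 of the 80 nuclear symbols. Both strands were searched. The NRF1 core GCGCATGC was in 8 of 69 (11.6%), beside 2.77% of 27457 promoters of all genes. The ETS letters CCGGAAGT were in 8 (11.6%), beside 4.20% of all, and the YY1 letters AAGATGGC in 15 (21.7%), beside 3.62%. In Atp5mc2, Atp5me and Atp5po the core lay on both strands, 1 copy overlapping the other. Ndufa11 held 4 overlapping copies, 2 on each strand, and the core lay once in Atp5mg, Ndufa6, Sdhb and Uqcrc1. The 4 with both strands are shown, with Ndufa6 as 1 of the complex I genes described below, and the letters of the core are in capitals.
Atp5mc2 (c ring of the ATP synthase), chr7:135678235-135678304, minus strand: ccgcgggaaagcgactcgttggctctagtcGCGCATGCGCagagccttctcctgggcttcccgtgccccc
Atp5me (membrane subunit e), chr14:1464754-1464823, plus strand: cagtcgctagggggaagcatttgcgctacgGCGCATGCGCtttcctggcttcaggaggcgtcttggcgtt
Atp5po (peripheral stalk), chr11:44657503-44657572, minus strand: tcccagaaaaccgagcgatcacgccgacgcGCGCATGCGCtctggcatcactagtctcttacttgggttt
Ndufa11 (accessory subunit of complex I), chr9:1637487-1637562, plus strand: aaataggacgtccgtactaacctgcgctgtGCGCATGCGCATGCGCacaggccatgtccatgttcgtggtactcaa
Ndufa6 (accessory subunit of complex I), chr7:115750384-115750451, minus strand: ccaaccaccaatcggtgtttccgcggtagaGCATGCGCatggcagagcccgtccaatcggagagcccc
These letters are matches in a window and not shown binding sites, and binding was not measured.

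Transcripts of the mitochondrial genome made up a smaller part of the RNA in both kinds of allograft than in unoperated nerve. The 13 mitochondrial genes held 8.55%, 7.26% and 7.57% of the reads on genes in PEG 1, PEG 2 and PEG 3. They held 8.68%, 7.81% and 7.12% in NC 1, NC 2 and NC 3, and 16.2% and 13.7% in Unop 1 and Unop 2. Every allograft lay below both Unop nerves, and the PEG and NC values overlapped. The 83 nuclear genes together held far less, with 0.961%, 0.910% and 0.963% in PEG, 1.16%, 0.938% and 0.949% in NC, and 1.05% and 0.863% in Unop, and here all 3 groups overlapped.

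The 2 genomes therefore differed in their proportion. Mitochondrial reads per nuclear subunit read were 8.90, 7.98 and 7.86 in PEG, 7.50, 8.33 and 7.50 in NC and 15.4 and 15.8 in Unop. This ratio needs no scaling between libraries, and no allograft came near the Unop nerves. As summed normalized counts, the mitochondrial genes were 2.49-fold higher in Unop than in PEG and 2.30-fold higher than in NC, and the nuclear genes 1.32-fold and 1.14-fold higher. No test was run on these sums, since the genes were chosen with earlier results of these data known.

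**Figure D1:**
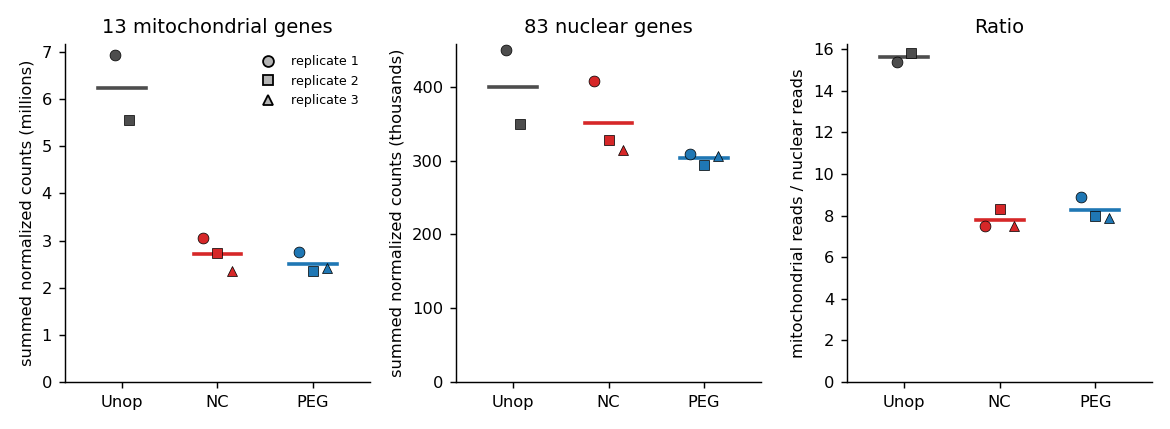
Summed normalized counts of the 13 mitochondrial genes (left) and 83 nuclear genes (middle), and mitochondrial reads per nuclear read (right), by group. Points are libraries and lines are group means. The ratio lay between 7.50 and 8.90 in the 6 allografts and at 15.4 and 15.8 in the Unop nerves.

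Cell type markers moved with the same groups. The summed normalized counts of 10 Schwann cell markers were between 29789 and 93238 in the allografts and 2893840 and 3419470 in the Unop nerves, so the labelled tissue showed its defining genes. Those of 10 macrophage markers ran the other way, from 270365 to 344373 in PEG, from 584734 to 806170 in NC, and 48783 and 31582 in Unop. T cell markers (9 of 10 in the table) summed to between 8281 and 12912 in PEG, between 31065 and 52973 in NC, and 2184 and 1809 in Unop. Adipocyte markers summed to between 7374 and 20139 in the allografts and to 127776 and 74876 in Unop. The part of cell composition in the differences of subunit genes was not tested.

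Gene by gene, limma (trend) on log2(normalized count + 1) was fitted to all 8 libraries, and a gene was called at a Benjamini-Hochberg adjusted p under 0.05 over the 16478 genes. Against Unop, 12 of the 13 mitochondrial genes were lower in PEG and 12 of 13 in NC. Of all genes tested, 28.6% were lower and 57.7% called in either direction in PEG against Unop, and 32.3% and 64.5% in NC against Unop. The median log2 fold change of the 13 genes was -1.47 in PEG and -1.46 in NC, beside 0.01 and 0.02 over all genes. Both comparisons share the 2 Unop nerves. For all 13 genes every allograft lay below both Unop nerves, as groups did not overlap for 74.5% and 74.6% of all genes.

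The 7 mitochondrial subunits of complex I were lower in both allografts. Mt-nd2, a proton-pumping membrane subunit, had normalized counts of 178322, 149470 and 134953 in PEG, 195117, 171451 and 133310 in NC, and 822236 and 488436 in Unop. The Unop nerves were far apart, but the lower one exceeded every allograft more than 2-fold. Its log2 fold change against Unop was -2.05 ± 0.32 (SE) in PEG and -1.94 ± 0.32 in NC, with limma adjusted p = 0.00072 and 0.00076. Mt-nd1, which sits next to the ubiquinone site, had 122522, 100937 and 113428 in PEG, 162725, 136023 and 99840 in NC, and 492495 and 380975 in Unop. Its log2 fold changes were -1.95 ± 0.27 and -1.73 ± 0.27, and here too no allograft reached either Unop nerve. The other 5 (Mt-nd3, Mt-nd4, Mt-nd4l, Mt-nd5 and Mt-nd6) had log2 fold changes from -1.78 to -1.25 in PEG and from -1.67 to -1.27 in NC. Mt-nd6 had the smallest standard error of the 13, with 16385, 14762 and 14729 in PEG, 16561, 15377 and 14018 in NC, and 42842 and 41505 in Unop.

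The complex IV subunits had the smallest log2 fold changes of the mitochondrial genes, a difference between genes that was not tested. Mt-co1, the catalytic subunit and the gene with the most reads in every library, had 903400, 778395 and 827941 in PEG, 994925, 884347 and 894614 in NC, and 1657120 and 1638370 in Unop. Its 3 groups were tight and the allografts lay well below Unop, but it was the gene that limma did not call, at -0.98 ± 0.45 in PEG (adjusted p = 0.0936) and -0.84 ± 0.45 in NC (adjusted p = 0.134). Its standard error was the largest of the 13, in a fit that draws each gene's spread toward a trend over abundance. With limma's robust fit it was called (adjusted p = 0.0014 in PEG and 0.0028 in NC), as by edgeR and DESeq2 on the recovered reads. Mt-co2, which takes electrons from cytochrome c, changed by -0.96 ± 0.27 and -0.88 ± 0.27, and Mt-co3 by -1.23 ± 0.35 and -1.06 ± 0.35, all called. Both genes lost their call in both allografts without Unop 1, and with the replicate number added to the fit. The calls were also lost in PEG without PEG 3, and in NC without NC 2, without NC 3 or with only the 2 groups compared.

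Cytochrome b (Mt-cyb), the mitochondrial subunit of complex III, had 191730, 194735 and 198126 in PEG, 227575, 205727 and 164554 in NC, and 564345 and 449831 in Unop, and was lower in both allografts (-1.37 ± 0.26 and -1.35 ± 0.26). Of the 2 ATP synthase subunits, Mt-atp8 (-2.02 ± 0.27 and -1.75 ± 0.27) was lower by more than Mt-atp6 (-1.37 ± 0.32 and -1.29 ± 0.32). That difference between the 2 genes was not tested. The messages of Mt-atp8 with Mt-atp6, and of Mt-nd4l with Mt-nd4, overlap on the genome, so their read counts depend on how the counting treated shared reads.

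The make-up of the mitochondrial reads also differed. Mt-co1 made up 32.9%, 33.1% and 34.3% of them in PEG, 32.5%, 32.3% and 37.9% in NC, and 23.9% and 29.5% in Unop. Mt-nd2 made up between 5.60% and 6.49% in the allografts and 11.8% and 8.80% in Unop, and Mt-nd1 on average 4.48% in PEG, 4.84% in NC and 6.98% in Unop. For these 3 genes the allografts and the Unop nerves did not overlap. The same held for Mt-co2, with a larger share in the allografts, and for Mt-atp8, Mt-nd4, Mt-nd4l and Mt-nd5, with a smaller one. Mt-atp6, Mt-cyb, Mt-nd3 and Mt-nd6 overlapped. The shares add up to the whole, so they are not independent of each other. Mt-co3 was between 13.9% and 15.8% in the allografts and 14.5% and 12.9% in Unop, which overlapped.

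Between the 2 kinds of allograft no mitochondrial gene was called, where 28.9% of all genes were. None had an unadjusted p under 0.05, and edgeR and DESeq2 called none. All 13 genes overlapped between PEG and NC, where groups did not overlap for 48.9% of all genes. The log2 fold changes ran from -0.27 (Mt-atp8, 95% interval -0.82 to 0.27) to 0.02 (Mt-nd3, -0.37 to 0.41), with a median of -0.08 beside 0.00 over all genes. The narrowest interval was that of Mt-nd6, from -0.23 to 0.23, and the widest that of Mt-co1, from -1.07 to 0.78, so smaller differences between PEG and NC could not be resolved.

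**Figure D2:**
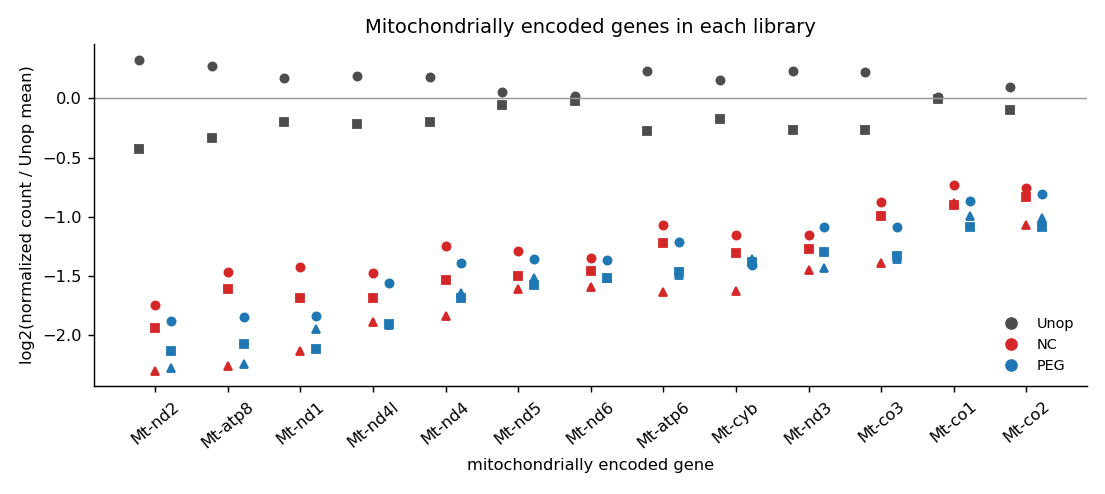
Each mitochondrial gene in each library, as the log2 ratio of its normalized count to the mean of the 2 Unop nerves (circles, squares and triangles are replicates 1, 2 and 3). PEG and NC points overlapped in every gene and lay below both Unop points.

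Nuclear subunits were lower against Unop by less, and unevenly over the complexes. In PEG, 41 of 83 were lower and 1 was higher, with a median log2 fold change of -0.44. In NC, 31 were lower and 1 was higher, with a median of -0.29. The share lower was 49.4% in PEG and 37.3% in NC, beside 28.6% and 32.3% of all genes, so NC was close to the share of all genes. Called in either direction were 50.6% in PEG and 38.6% in NC, beside 57.7% and 64.5% of all genes. Groups did not overlap for 60 of the 83 in PEG and 29 of the 83 in NC, beside 74.5% and 74.6% of all genes. Few changes were large: beyond a log2 fold change of 1 lay 4 nuclear genes in PEG and 3 in NC, beside 11 mitochondrial genes in each (all genes, 32.3% and 38.6%). Unop 1 exceeded Unop 2 in 80 of 83 nuclear genes and NC 1 was the highest NC library in 75 of 83. Scaling by the reads outside mitochondrial genes, which moved the median of all genes up by 0.26 in PEG and 0.16 in NC, left 22 lower and 4 higher in PEG and 16 and 5 in NC, and over all genes 6600 higher and 3424 lower in PEG in place of 4800 and 4713, and 6213 and 4469 in NC in place of 5305 and 5322. The nuclear median was then -0.18 in PEG and -0.13 in NC, beside 0.27 and 0.18 over all genes. Without Unop 1, the called nuclear genes fell from 42 to 18 in PEG (17 lower and 1 higher) and from 32 to 18 in NC (13 lower and 5 higher), with medians of -0.24 and -0.08.

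**Figure D3:**
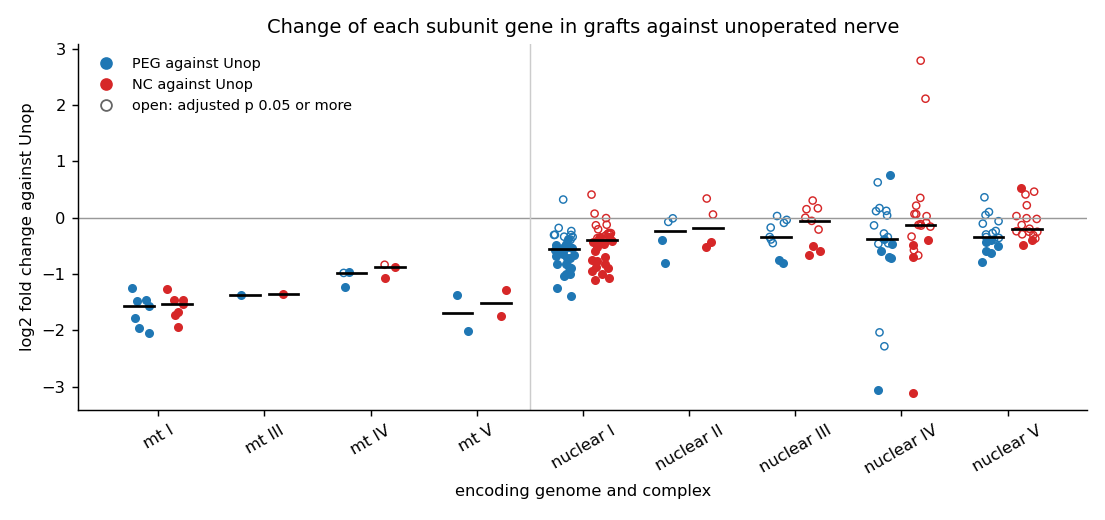
Log2 fold change of every subunit gene against Unop in PEG (blue) and NC (red), by encoding genome and complex. Filled points had an adjusted p under 0.05 and black lines are medians, which were -0.56 and -0.39 for nuclear complex I and -1.56 and -1.53 for its mitochondrial subunits.

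Complex I held most of the lower nuclear genes. In PEG 25 of 34 (73.5%) were lower than in Unop and in NC 20 of 34 (58.8%), with none higher. Of all genes, 28.6% and 32.3% were lower. Among the nuclear core subunits, which carry the flavin and the iron-sulfur clusters or bind ubiquinone, Ndufv2, Ndufs3 and Ndufs7 were lower in both allografts. Of the 27 accessory genes, 21 were lower in PEG and 16 in NC. Without Unop 1, complex I genes lower numbered 13 of 34 in PEG and 10 of 34 in NC, and without NC 3 they numbered 12 of 34 in NC.

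Ndufv2, an iron-sulfur subunit of the NADH-oxidizing arm, had normalized counts of 3083, 2738 and 2666 in PEG, 4287, 3279 and 2860 in NC, and 8197 and 6706 in Unop. Every allograft was below both Unop nerves, with log2 fold changes of -1.39 ± 0.17 in PEG and -1.11 ± 0.17 in NC (limma adjusted p = 0.00021 and 0.00057). Ndufs4, an accessory subunit needed for stable assembly of that arm, had 2076, 1912 and 1840 in PEG, 2617, 2069 and 1927 in NC, and 5020 and 4228 in Unop. It was lower by a like amount in both (-1.25 ± 0.14 and -1.08 ± 0.14). Ndufb10, an accessory subunit of the membrane arm, had 2331, 2215 and 2484 in PEG, 2692, 2456 and 2081 in NC, and 5295 and 4319 in Unop (-1.03 ± 0.13 and -0.997 ± 0.13). Ndufa6, an accessory subunit, was lower in both as well (-0.99 and -0.82). Ndufb8, the nuclear gene of complex I with the highest mean count, was lower in PEG (-0.56, adjusted p = 0.0202) and at -0.30 in NC (adjusted p = 0.154).

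In complex II, Sdha, the flavoprotein that oxidizes succinate, had 4979, 5271 and 5521 in PEG, 7258, 5730 and 6105 in NC, and 9194 and 9079 in Unop. It was lower in both allografts (-0.80 ± 0.11 and -0.53 ± 0.11), as was the membrane anchor Sdhc (-0.40 ± 0.14 and -0.42 ± 0.14). The iron-sulfur subunit Sdhb (-0.07 and 0.06) and the second anchor Sdhd (-0.01 and 0.34) were not called. Without Unop 1 the median of complex II moved from -0.24 to -0.08 in PEG and from -0.18 to -0.02 in NC.

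Complex III had 2 of 9 genes lower in PEG (22.2%) and 3 of 9 in NC (33.3%), beside 28.6% and 32.3% of all genes. Without Unop 1 the median log2 fold change of its genes moved from -0.34 to -0.13 in PEG and from -0.06 to 0.08 in NC. Both comparisons called the small subunit Uqcr11 (-0.75 ± 0.17 and -0.66 ± 0.17) and 1 of the 2 identifiers of Uqcrb (-0.81 ± 0.20 and -0.59 ± 0.20), and NC also Uqcrq (-0.49). The core proteins Uqcrc1 and Uqcrc2 and the Rieske protein Uqcrfs1 were called in neither. Uqcrh, the hinge protein near cytochrome c, had 5114, 4317 and 4550 in PEG, 6311, 6078 and 5335 in NC, and 6124 and 4498 in Unop, where the 2 Unop nerves spanned most of the allografts. Uqcrb, Ndufv3 and Cox6b1 each stand on 2 identifiers in the table, so reads could be split between copies.

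Complex V had 6 of 17 genes lower in PEG (35.3%) and 2 of 17 in NC (11.8%), beside 28.6% and 32.3% of all genes. The 17 include Atp5if1, taken by its symbol, which is an inhibitor of the synthase and not a structural subunit. It was 1 of the 2 lower in NC (-0.40 ± 0.12). Without Unop 1, none was lower and 1 was higher in each, and under scaling outside mitochondrial genes 1 was lower and 1 higher in PEG, and none lower and 2 higher in NC. Atp5f1b, the catalytic beta subunit of the F1 head and the nuclear gene of the complex with the highest mean count, had 26027, 28366 and 28347 in PEG, 40937, 30340 and 29245 in NC, and 35171 and 29946 in Unop. It was called in neither (-0.24, adjusted p = 0.260, and 0.03, adjusted p = 0.889). Of the 5 genes of the F1 head only Atp5f1e was called, in PEG against Unop (-0.62). Atp5me, with the NRF1 core shown above, was lower in both (-0.79 ± 0.19 and -0.49 ± 0.19). Atp5mc2, 1 of 3 genes for the same c ring protein, had 10549, 9418 and 10688 in PEG, 12213, 12067 and 10161 in NC, and 9242 and 6814 in Unop. Every allograft exceeded both Unop nerves, and it was the 1 nuclear gene called higher in NC (0.53 ± 0.15, adjusted p = 0.0136), at 0.36 ± 0.15 (adjusted p = 0.0664) in PEG. Of its partners, Atp5mc3 was lower in PEG (-0.58) and Atp5mc1 was not called.

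Of the promoters found, 33 belonged to genes lower in PEG against Unop and 36 to the others. The NRF1 core was in 3 and 5 of these, the ETS letters in 1 and 7, and the YY1 letters in 8 and 7. These counts are descriptions, and no test was run on them.

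In complex IV, 6 of 19 nuclear genes (31.6%) were lower in PEG than in Unop, beside 28.6% of all genes, and 1 was higher. In NC 4 of 19 (21.1%) were lower, beside 32.3% of all genes. Without Unop 1 the median of these nuclear genes moved from -0.37 to -0.14 in PEG and from -0.13 to 0.07 in NC. Several complex IV subunits exist in pairs, a broadly expressed form and one known from muscle, lung or other restricted tissues. Cox4i1, the broad form of subunit 4, had 9968, 10189 and 11282 in PEG, 12929, 13018 and 11674 in NC, and 15401 and 11916 in Unop. It was slightly lower in PEG than in Unop (-0.37 ± 0.13, adjusted p = 0.0360) and at -0.11 in NC. Its partner Cox4i2, known from lung and from cells that respond to low oxygen, had 164, 194 and 165 in PEG, 81.3, 66.7 and 96.5 in NC, and 96.6 and 107.6 in Unop.

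Cox4i2 was therefore higher in PEG than in every other library. It rose by 1.10 ± 0.19 on the log2 scale against NC (limma adjusted p = 0.0046) and by 0.77 ± 0.21 against Unop (adjusted p = 0.0145), and no other nuclear subunit gene was called higher in either comparison. Against NC its call held under every setting tried. Without Unop 1 the comparison with Unop gave 0.69 (adjusted p = 0.0719) and was not called. Ndufa4l2, the low-oxygen partner of Ndufa4, had 226, 483 and 203 in PEG, 105, 212 and 191 in NC, and 260 and 256 in Unop, was uneven within PEG and was not called in any comparison. Ndufa4 itself, long listed with complex I and now placed in complex IV, was lower in PEG than in Unop (-0.72 ± 0.25, adjusted p = 0.0377) and at -0.58 ± 0.25 in NC (adjusted p = 0.0740).

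**Figure D4:**
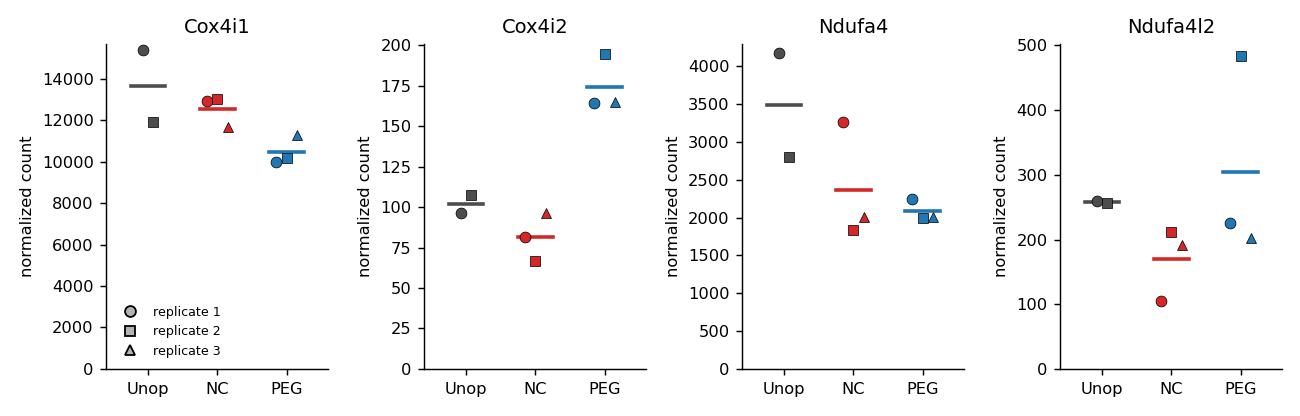
Normalized counts of Cox4i1, Cox4i2, Ndufa4 and Ndufa4l2 by group, points for libraries and lines for means, each axis from 0. Cox4i2 lay between 164 and 194 in PEG and between 66.7 and 107.6 in the other libraries.

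The muscle forms of subunits 6a and 8 varied widely between libraries of the same group. Cox6a2 had 133, 11.2 and 38.5 in PEG, 5176, 131 and 2165 in NC, and 419 and 63.8 in Unop. Cox8b had 45.4, 7.48 and 12.2 in PEG, 2143, 23.7 and 918 in NC, and 196 and 35.0 in Unop. Both were highest in NC 1 and NC 3. The 12 skeletal muscle fibre markers in the table (of 15 listed) had their highest sums in those libraries, with 944398 in NC 1 and 338551 in NC 3, beside 15613 in NC 2, between 3758 and 21468 in PEG, and 52259 and 9140 in Unop. None of these markers was at 0 in any library.

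Cox6a2 was called lower in PEG than in NC (-4.83 ± 1.42, adjusted p = 0.0362) and Cox8b was not (-4.40 ± 1.56, adjusted p = 0.0662). With NC 1 and NC 3 left out, Cox6a2 was at -1.72 (adjusted p = 0.439), and the call was also lost without PEG 2, PEG 3, NC 1 or NC 3 alone and with limma's robust fit on all 8 libraries (adjusted p = 0.0841). The broad partners showed no such spread. Cox6a1 was between 6799 and 8403 in the allografts and 14255 and 10919 in Unop, and was lower in both (-0.59 ± 0.14 and -0.70 ± 0.14). Cox8a was lower in NC than in Unop (-0.48, adjusted p = 0.0157), at -0.34 in PEG (adjusted p = 0.0646).

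Cox7a1, the form of subunit 7a known from heart, muscle and brown fat, did not go with the muscle markers. It had 20.4, 14.96 and 14.1 in PEG, 14.3, 19.4 and 13.5 in NC, and 126 and 163 in Unop. The Unop nerves were 6-fold or more above every allograft, and it showed the largest fall of any called subunit against Unop in both allografts (-3.06 ± 0.31 and -3.12 ± 0.31), whereas its counts in the muscle-rich NC 1 and NC 3 were no higher than in NC 2. Of the brown fat markers, Cidea had 452 and 299 in Unop and between 54.7 and 100.1 in the allografts, and Ucp1 had at most 1 read in any library. Their part in the Cox7a1 difference was not tested. The broad partner Cox7a2 was not called (-0.28 and -0.16). Cox6b2, the testis form, had between 63.4 and 169 counts over all libraries and was not called, nor was either identifier of Cox6b1.

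**Figure D5:**
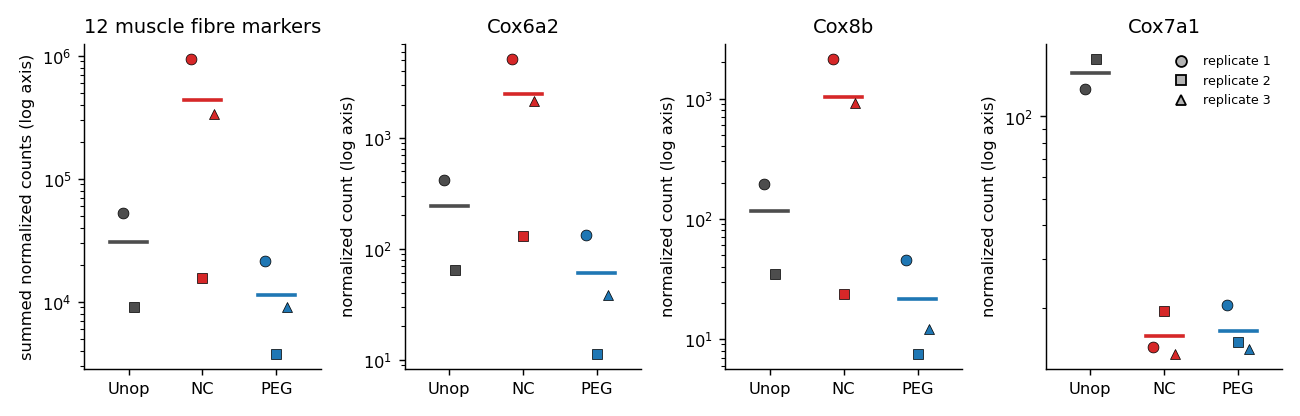
Summed normalized counts of the 12 muscle fibre markers, and normalized counts of Cox6a2, Cox8b and Cox7a1, by group on log axes. Points are libraries and lines are means. Cox6a2 and Cox8b were highest in NC 1 and NC 3, as were the markers, and Cox7a1 was highest in both Unop nerves.

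Between PEG and NC, 4 of 83 nuclear genes were called (4.82%), beside 28.9% of all genes, and 16 had an unadjusted p under 0.05. Beyond a log2 fold change of 1, 1 was higher and 1 lower, beside 4.41% and 7.14% of all genes. The median was -0.17 beside 0.00 over all genes, and 66 of 83 were below 0. Without NC 1, the highest NC library in 75 of 83 nuclear genes, the median was -0.045, with 0.011 in complex I, 0.0064 in complex IV and -0.12 in complex V. Besides Cox4i2 and Cox6a2 these were 2 complex I genes. Ndufs7, the core subunit that holds the last iron-sulfur cluster before ubiquinone, had 1779, 1816 and 1795 in PEG, 2834, 2355 and 2316 in NC, and 3359 and 3031 in Unop. The 3 groups did not overlap, with PEG lowest and Unop highest, and it was lower in PEG than in NC by 0.47 ± 0.10 on the log2 scale (limma adjusted p = 0.0086). Ndufa13, an accessory subunit also known as GRIM-19, had 3440, 2833 and 3087 in PEG, 4904, 4592 and 4106 in NC, and 5603 and 4335 in Unop. PEG lay below every other library (-0.54 ± 0.12 against NC, adjusted p = 0.0142), and NC overlapped Unop. Without NC 1 and NC 3, Ndufs7 was at -0.39 (adjusted p = 0.0519) and Ndufa13 at -0.56 (adjusted p = 0.0714), and without PEG 2 Ndufa13 was at -0.47 (adjusted p = 0.0588).

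Other genes of mitochondrial function were counted from lists drawn up by role. Of 45 assembly factors, 20 were lower and 2 higher in PEG than in Unop, and 18 and 5 in NC. Of 72 mitochondrial ribosomal proteins, 29 were lower and 2 higher in PEG, and 27 and 3 in NC. The 16 electron carrier genes (cytochrome c and ubiquinone synthesis) gave 7 lower and 2 higher in PEG, and 7 and 1 in NC, and the 16 citric acid cycle genes 7 and 1, and 5 and 3. Medians lay between -0.35 and -0.19 in these 4 lists, beside 0.01 and 0.02 over all genes. Of all genes, 28.6% were lower and 29.1% higher in PEG against Unop, and 32.3% and 32.2% in NC.

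Of 13 regulators of mitochondrial biogenesis, 5 were higher and 2 lower in PEG than in Unop, where 29.1% of all genes were higher and 28.6% lower. In NC 7 were higher and 3 lower, where 32.2% and 32.3% of all genes were. Their medians were -0.06 and 0.32. Esrra, a nuclear receptor that activates subunit genes, was 1022 ± 69.0 (SD, n = 3) in PEG, 1313 ± 62.0 (n = 3) in NC and 594 ± 178 (n = 2) in Unop, and was higher in both (0.81 ± 0.17 and 1.18 ± 0.17). Nrf1, the factor of the core above, was higher in both as well (0.40 ± 0.11 and 0.48 ± 0.11). Ppargc1a, their coactivator, was lower in NC (-1.52 ± 0.54, adjusted p = 0.0365) and at -1.40 ± 0.54 in PEG (adjusted p = 0.0541). Of 17 genes of mitochondrial transcription and replication, 2 were higher and 4 lower in PEG, and 4 and 3 in NC. Tfam, which packages and transcribes mitochondrial DNA, was lower in PEG (-0.39 ± 0.13, adjusted p = 0.0346) and at -0.22 in NC (adjusted p = 0.178). These 4 were chosen after their values were seen.

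Of 12 genes for ATP export and uncoupling, 3 were higher and 2 lower against Unop in each allograft. Of all genes, 29.1% were higher and 28.6% lower in PEG, and 32.2% and 32.3% in NC. Ckb, the brain form of creatine kinase, was 14671 ± 1555 (SD, n = 3) in PEG, 8818 ± 1091 (n = 3) in NC and 5667 ± 130 (n = 2) in Unop, and was the called gene of that list with the largest rise in PEG against NC (0.74 ± 0.12, adjusted p = 0.0035). Its mitochondrial counterpart from muscle, Ckmt2, was lower in PEG than in NC (-4.95 ± 1.38, adjusted p = 0.0296), where NC varied widely (810 ± 888, n = 3) as the muscle markers did. Where 28.9% of all genes were called between PEG and NC, 16 of the 191 genes on these 7 lists were (3 higher and 13 lower). Among them were the ubiquinone genes Coq8a (-1.69 ± 0.35) and Coq4 (0.67 ± 0.17), the complex IV assembly factors Sco1 (-0.53 ± 0.12) and Cox19 (0.26 ± 0.08) and the mitochondrial RNA polymerase Polrmt (-0.37 ± 0.12). Ppard (-0.58 ± 0.12), Pdhx of pyruvate dehydrogenase (-0.57 ± 0.10) and the ribosomal protein Mrps34 (-0.49 ± 0.16) were the others named by the rule.

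The lists of cell type markers stood beside these genes as follows. Against Unop, PEG and NC both had 9 of 10 Schwann cell markers lower and 1 higher, 10 of 10 adipocyte markers lower and 9 of 9 T cell markers higher, with 9 and 10 of 10 macrophage markers higher. Of 6 fibroblast markers, 5 were higher and 1 lower in PEG, and 1 and 1 in NC. Of 5 endothelial markers, 2 were lower in PEG and 3 in NC, and both red blood cell genes and the 1 tested brown fat gene were lower in each. Of 12 muscle fibre markers, 1 was lower in PEG than in Unop and none was called in NC. Between PEG and NC, 9 of 9 T cell, 7 of 10 macrophage, 4 of 10 adipocyte, 4 of 12 muscle fibre and 1 of 5 endothelial markers were lower, 3 of 10 Schwann cell and 3 of 6 fibroblast markers were higher, and none of the red blood cell or brown fat genes was called.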

How the data were processed

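Tissue was RNA-seq profiled in 8 libraries. Paired reads were aligned by the authors with Tophat2 (rat build Rnor 6.0). HTSeq-count then gave reads per gene, which DESeq2 scaled by median-of-ratios size factors, so the deposited signal is a normalized read count. Tool versions and the strand setting of the counting are not given in the sources used here. The deposited comparison files hold the authors' fold changes, Wald scores and p-values and were not used.

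Reads were recovered by multiplying by a size factor per library (0.800 to 1.12), and 100% of values were whole within 0.001. Depth was 32472925 to 39959620 reads on genes. The planned edgeR test assumed raw counts. In its place limma 3.58.1 (trend, R 4.3.3) was used on log2(normalized count + 1), a scale that understates changes of low genes, with group means over all 8 libraries. The spread is shared by the 3 groups because Unop has 2 nerves. Residual degrees of freedom were 5 and prior ones 3.27. Values after ± are standard errors of the log2 fold change unless marked SD. Shares are percentages of the reads on genes.

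Alternatives were edgeR 4.0.16 and DESeq2 1.42.0 on the recovered reads, TMM factors, scaling by reads outside mitochondrial genes, no filter or one of 50 counts, a pseudocount of 8, 2 groups only, a robust fit, a fold threshold, a replicate block and each library left out. Leaving out the libraries highest in muscle markers was chosen after seeing the data. The fit was also run on simulated data with the same spread for every gene. These held fewer changed genes than were called here, and larger changes than most subunit genes showed. That run therefore does not bear on the calls reported here.

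Members and lists were chosen with earlier results of these data known. Named genes are the mitochondrial members, the nuclear member of each complex with the highest mean count, the 3 called nuclear members with the smallest adjusted p per comparison and direction, the isoform pairs, and in each other list the called gene with the largest change in each direction of PEG against NC. Other genes, and the grouping of subunits by role, were chosen after their values were seen. Some values of single genes are not reported here.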

Additional observations from a re-analysis of the deposited data

How the results depend on the processing

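The 12 mitochondrial genes lower in each allograft kept their direction under every alternative tried, and 9 or more kept their call when any 1 library was left out. Most of the calls lost in this way were those of Mt-co2 and Mt-co3. With 7 called, NC against Unop was lowest without NC 1, NC 3 and Unop 1, which leaves those groups with 1 library each whose spread is taken from PEG. No alternative called a mitochondrial gene between PEG and NC.

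The called nuclear genes were less stable. Between PEG and NC they numbered 4, with 2 beyond a log2 fold change of 1, 8 by DESeq2, 7 with only the 2 groups, 2 to 7 with each library left out (2 without PEG 2, 7 without Unop 1 or Unop 2) and 1 without NC 1 and NC 3. In PEG against Unop they numbered 42, with 4 beyond a log2 fold change of 1 and 18 to 56 with each library left out, and the median ran from -0.65 without Unop 2 to -0.24 without Unop 1, also -0.24 without NC 1, NC 3 and Unop 1. In NC against Unop they numbered 32, with 3 beyond a log2 fold change of 1, 19 with only the 2 groups and 18 to 42 with each library left out (19 without NC 3, 18 without Unop 1), and the median ran from -0.50 without Unop 2 to -0.082 without Unop 1. Scaling by reads outside mitochondrial genes left 26 called nuclear genes in PEG and 21 in NC against Unop, with medians of -0.18 for nuclear and -1.20 for mitochondrial genes in PEG. The median of all genes moved up by 0.26 in PEG and 0.16 in NC against Unop under that scaling, and by 0.10 in PEG against NC. Apart from this shift and from settings with fewer samples, the cause of these differences was not tested.

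Without Mt-co1, the most abundant mitochondrial member, the mitochondrial share was 5.19% in PEG, 5.19% in NC and 11.0% in Unop, and the ratio to all nuclear members was 5.49, 5.12 and 11.4. Separately, without the most abundant nuclear member the nuclear share in PEG was 0.859%.

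Of 2760 alternative values of 46 named genes, 131 lost a call, 43 gained one and 84 changed sign, 14 of these where the value was called or more than 1 standard error from 0. Those 14 are given here. Uqcrh in PEG against Unop turned to 0.086 under scaling outside mitochondrial genes, where Atp5f1b turned to 0.025. With each library left out, Uqcrh ran from -0.40 to 0.048 in PEG (0.048 without Unop 1, with or without NC 1 and NC 3 left out too) and from -0.055 to 0.39 in NC, and the 2 identifiers of Cox6b1 from -0.20 to 0.25 and from -0.052 to 0.48 in NC, each lowest without Unop 2. In NC against Unop without NC 1 and NC 3, Cox6a2 was at -0.32, Cox8b at -1.77, Cox6b2 at 0.38 and Ckmt2 at -1.15, and without Unop 1 as well Cox8b was at -0.55, Cox6b2 at 0.80 and Ckmt2 at -0.58. None of these was called in the main result.

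Same-numbered PEG and NC libraries correlated in their deviations from the group means at 0.11, 0.11 and -0.05. Same-numbered libraries of an allograft group and Unop, 2 pairs each, gave 0.15 and 0.14 in PEG and 0.15 and 0.16 in NC. The 2 Unop nerves deviate from their mean by equal and opposite amounts, so those 2 pairs are not independent. A cut of 0.1 on each pair was a choice and was not tested. Not every pair was over 0.1, so the replicate numbers were not taken to pair the samples, and PEG 3 did not correlate best with its own number. With a replicate block, 7 nuclear genes were called between PEG and NC, 45 in PEG and 32 in NC against Unop, and 10 mitochondrial genes in each kind of allograft against Unop. Cox4i2 in PEG against Unop was then at 0.72 (adjusted p = 0.0501) and not called.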
